A study of Mus musculus with 5 samples.

Results

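PB1 and FAM are ancient monomers derived from 7SL RNA, and 6 such names were found among the 1038 repeat and RNA names of the melRNA-seq tables. The members were all names that begin with PB1 (PB1, PB1D7, PB1D9, PB1D10 and PB1D11) and the name FAM. Text after a slash in a name was dropped. The 3 testis tables list 5 of the 6 names, since PB1D11 is not listed there, and both spermatogonia tables list all 6.

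The libraries hold RNA with inserts of 115 to 255 nt from C57BL/6J mice at postnatal day 7. Whole testis RNA, 600 ng per library, was sequenced without enzyme (untreated), after 25 U of the enzyme abbreviated TAP, which the labels spell out as tobacco alkaline phosphatase, for 1.5 h, and after 20 U of 5' polyphosphatase (5Pase) for 0.5 h. Spermatogonia sorted by their surface protein EpCAM gave 2 replicate libraries, for which the study's methods state 500 ng of RNA, 25 U of RppH for 1 h and another library kit, while their labels give 600 ng. The 5' adaptor joins only a 5' monophosphate. TAP was used to turn both caps and triphosphates into a monophosphate, and 5Pase acts on triphosphates and leaves caps. RppH also leaves a monophosphate, and the 5.8S rRNA carries one without any enzyme. No genotype differs between the groups. Cell type, enzyme, kit and, by the study's methods, RNA amount change together between testis and spermatogonia and cannot be told apart. For spermatogonia those methods name a size selection on a gel without giving the insert range. In these bulk samples, fewer cells of a type and less RNA per cell cannot be told apart either. The tables list repeats and short non-coding RNAs and no marker mRNA, so the tissue and cell labels could not be checked against markers.

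7SL RNA is the RNA of the signal recognition particle, which brings ribosomes that make secreted proteins to the endoplasmic reticulum. It is made by RNA polymerase III from a promoter that includes an internal A box and B box. FAM, the fossil Alu monomer, and PB1, the proto-B1, are short retrotransposed relatives of 7SL RNA that lost its central part. The B1 family of rodents descends from PB1-like monomers, and numbered names such as PB1D7 and PB1D9 stand for variants of PB1 that differ by deletions. B1 copies made by RNA polymerase III start with a triphosphate, whereas pieces of a repeat cut out of a longer transcript need not. No name for 7SL RNA is listed in the 5 tables.

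Each level is given as RPM, reads per 1000000 reads of 5.8S rRNA in the same library, which is the study's unit, or per 1000000 listed reads, meaning all reads assigned to a name. A read covers a whole insert, so reads of different names are set side by side without a length correction. The libraries were amplified by PCR, so several reads can come from 1 RNA molecule. Any preference of amplification or size selection for some lengths was not corrected. The libraries held 1067851 to 3166394 listed reads, of which 5.8S rRNA took 19.2% to 50.2%. The share of 5.8S rRNA was 27.2% in the untreated, 50.2% in the TAP and 19.2% in the 5Pase library, and these differences enter every RPM ratio between the testis libraries. Small nucleolar RNAs (snoRNAs) took 696740.5, 161497.3 and 760656.0 per 1000000 listed reads in the same order. These differences enter every ratio per listed read. Each testis treatment has 1 library, so no test between treatments was possible. Intervals of ratios are exact 95% intervals from the read counts. Without molecular identifiers they cover counting error only. Values for spermatogonia are means ± SD over 2 replicates. In ratios to testis this SD leaves out the counting error of the 1 testis library that both replicates share. The study calls them biological replicates without saying which animals or sorts they came from.

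FAM was the most read monomer in each testis library. Beside the PB1 names together, FAM gave more reads in untreated testis, as many after 5Pase, and fewer after TAP and in spermatogonia. It had 143 reads in the untreated library, 122 after TAP, 98 after 5Pase, and 86 and 121 in the spermatogonia replicates. Its level was 452 RPM in untreated testis, 228 RPM after TAP and 471 RPM after 5Pase. In spermatogonia its level was 69.5 RPM in replicate 1 and 235 RPM in replicate 2. The testis levels of the untreated and 5Pase libraries lay above both spermatogonia levels, while the level after TAP lay between the replicates. Per 1000000 listed reads FAM stood at 123 in untreated testis, 114 after TAP and 90.6 after 5Pase, all above the 27.2 and 60.7 of the spermatogonia replicates. The order of testis above spermatogonia was therefore complete on this scale and not on the RPM scale.

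PB1, the name without a deletion number, had 25 reads in the untreated library, 94 after TAP, 41 after 5Pase, and 223 and 210 in spermatogonia. Its level was 79.1 RPM without enzyme, 175 RPM after TAP, 197 RPM after 5Pase, and 180 RPM and 407 RPM in spermatogonia. Per 1000000 listed reads it was 21.5, 88.0, 37.9, 70.4 and 105 in the same order of libraries. The untreated library was the lowest on both scales, and the TAP level per listed read lay between those of the spermatogonia replicates.

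PB1D9 was scarce in testis and was the most read monomer in both spermatogonia replicates. It had 8 reads in the untreated library, 26 after TAP, 16 after 5Pase, and 568 and 405 in spermatogonia. These were 25.3 RPM, 48.5 RPM and 76.9 RPM in testis against 459 RPM and 785 RPM in spermatogonia. Every testis level lay below both spermatogonia levels, per 5.8S rRNA read and per listed read.

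PB1D10 had 5 reads in the untreated library, 44 after TAP, 22 after 5Pase, and 277 and 177 in spermatogonia. Its level was 15.8 RPM without enzyme, 82.1 RPM after TAP and 106 RPM after 5Pase, and 224 RPM and 343 RPM in spermatogonia. All 3 testis levels lay below both spermatogonia levels. PB1D7 had 1 read without enzyme, 16 after TAP, 19 after 5Pase, and 125 and 95 in spermatogonia. Its level was 3.16 RPM, which is 1 read, in untreated testis, 29.8 RPM after TAP, 91.3 RPM after 5Pase, and 101 RPM and 184 RPM in spermatogonia. The 5Pase level of PB1D7 was near that of spermatogonia replicate 1. PB1D11, with 63 and 39 reads and 63.3 RPM ± 17.5 (SD, n = 2), was the least read monomer in replicate 1 and replicate 2.

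**Figure D1:**
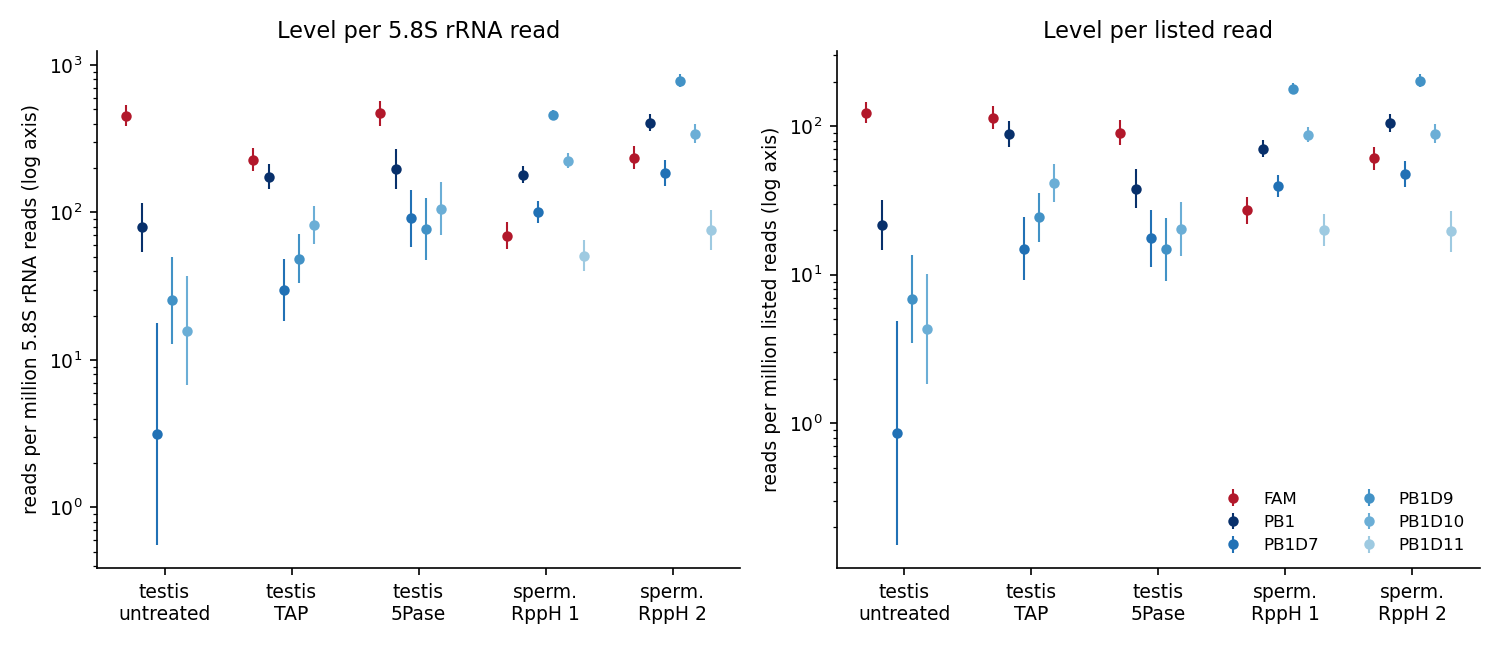
Level of each PB1 and FAM name in the 5 libraries, as reads per 1000000 5.8S rRNA reads (left) and per 1000000 listed reads (right), both on log axes; points are single libraries and bars are Wilson 95% intervals of the read counts (per 5.8S rRNA read, the interval per listed read rescaled). FAM stands highest in the 3 testis libraries, and PB1D9 stands highest in both spermatogonia libraries, at 459 and 785 RPM; PB1D11 has no point in testis because it is not listed there.

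The replicates of spermatogonia differed more per 5.8S rRNA read than per listed read. FAM was 3.38 times as high in replicate 2 as in replicate 1 per 5.8S rRNA read and 2.24 times as high per listed read. The 5 PB1 names together differed 1.77 times per 5.8S rRNA read and 1.17 times per listed read. PB1D10 and PB1D11 were the most even, at 1.02 and 0.983 per listed read. FAM was thus the least even monomer between replicates on both scales.

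The comparison of treated with untreated testis RNA asks which monomer RNAs gain reads once caps or triphosphates are opened. Together the 6 names had 182 reads without enzyme and 302 after TAP, a ratio of 0.979 per 5.8S rRNA read (0.812 to 1.18). This value near 1 combined a PB1 part that was higher after TAP with a FAM part that was lower. The PB1 names together had 39 reads without enzyme and 180 after TAP, a ratio of 2.72 (1.92 to 3.95), or 5.02 (3.53 to 7.29) per listed read. FAM had a ratio of 0.503 (0.392 to 0.645), which was 0.928 (0.722 to 1.19) per listed read, where its interval includes 1. The number of FAM reads per PB1 read, which needs no denominator, was 3.67 without enzyme and 0.678 after TAP, a ratio of 0.185 (0.121 to 0.282).

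Among single names after TAP, PB1 had a ratio of 2.22 (1.41 to 3.60) per 5.8S rRNA read and PB1D10 one of 5.19 (2.06 to 16.8). PB1D7 had a ratio of 9.44, whose interval of 1.47 to 396 reflects the 1 read without enzyme. The ratio of PB1D9, 1.92 (0.843 to 4.90), was not distinguishable from 1 at this depth, while per listed read it was 3.53 (1.55 to 9.03). With at least 10 reads over both libraries, 3 of 5 members (PB1, PB1D10 and PB1D7) were higher by 2-fold or more, beside 29.1% of 323 names tested. PB1D7 and PB1D10, with 1 and 5 untreated reads, reached that minimum only through their TAP reads, which favours a call of higher. None of the 5 members was lower by 2-fold or more, beside 45.5% of the 323 names, but FAM only just missed that cut. The median ratio was 2.22 over the 5 members and 0.590 over all 323 names. FAM, at 0.503, had a ratio above that of 45.5% of the names, so its TAP ratio was close to the median of all names.

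After 5Pase the 6 names together had 196 reads and a ratio to untreated of 1.64 (1.33 to 2.01) per 5.8S rRNA read, or 1.16 (0.940 to 1.42) per listed read. The PB1 names had 98 reads, a ratio of 3.82 (2.61 to 5.69), and 2.70 (1.84 to 4.02) per listed read. FAM also had 98 reads, a ratio of 1.04 (0.797 to 1.36), and 0.736 (0.563 to 0.958) per listed read. The intervals of FAM included 1 on the first scale and lay below 1 on the second, so no direction holds for FAM after 5Pase on both. FAM reads per PB1 read went from 3.67 to 1, a ratio of 0.273 (0.174 to 0.428).

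All 4 PB1 names listed in testis had a 5Pase ratio above 2 per 5.8S rRNA read. It was 2.49 (1.48 to 4.28) for PB1, 6.69 (2.47 to 22.6) for PB1D10 and 3.04 (1.23 to 8.20) for PB1D9. For PB1D7 it was 28.9 (4.59 to 1199.9), again against 1 read. These 4 of 5 members tested stood beside 41.1% of 314 names higher by 2-fold or more, and none of the 5 was lower by 2-fold or more, beside 3.18% of these names. PB1D7, PB1D9 and PB1D10, with 1, 8 and 5 untreated reads, reached the minimum of 10 only through their 5Pase reads, which favours a call of higher. The median was 3.04 over the members and 1.76 over all names. FAM had a ratio above that of 16.2% of the names. Per listed read, the ratio of PB1 was 1.76 (1.05 to 3.02) and that of PB1D9 was 2.15 (0.867 to 5.79), so the latter was not distinguishable from 1.

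TAP and 5Pase were used on the same kind of RNA, and their libraries can be set against each other with 1 library each. The PB1 names had a ratio of TAP to 5Pase of 0.713 (0.554 to 0.921) per 5.8S rRNA read and of 1.86 (1.45 to 2.40) per listed read. The direction thus depended on the denominator. FAM reads per PB1 read were 0.678 times as many after TAP as after 5Pase (0.472 to 0.974), the smallest gap between any pair of testis libraries.

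**Figure D2:**
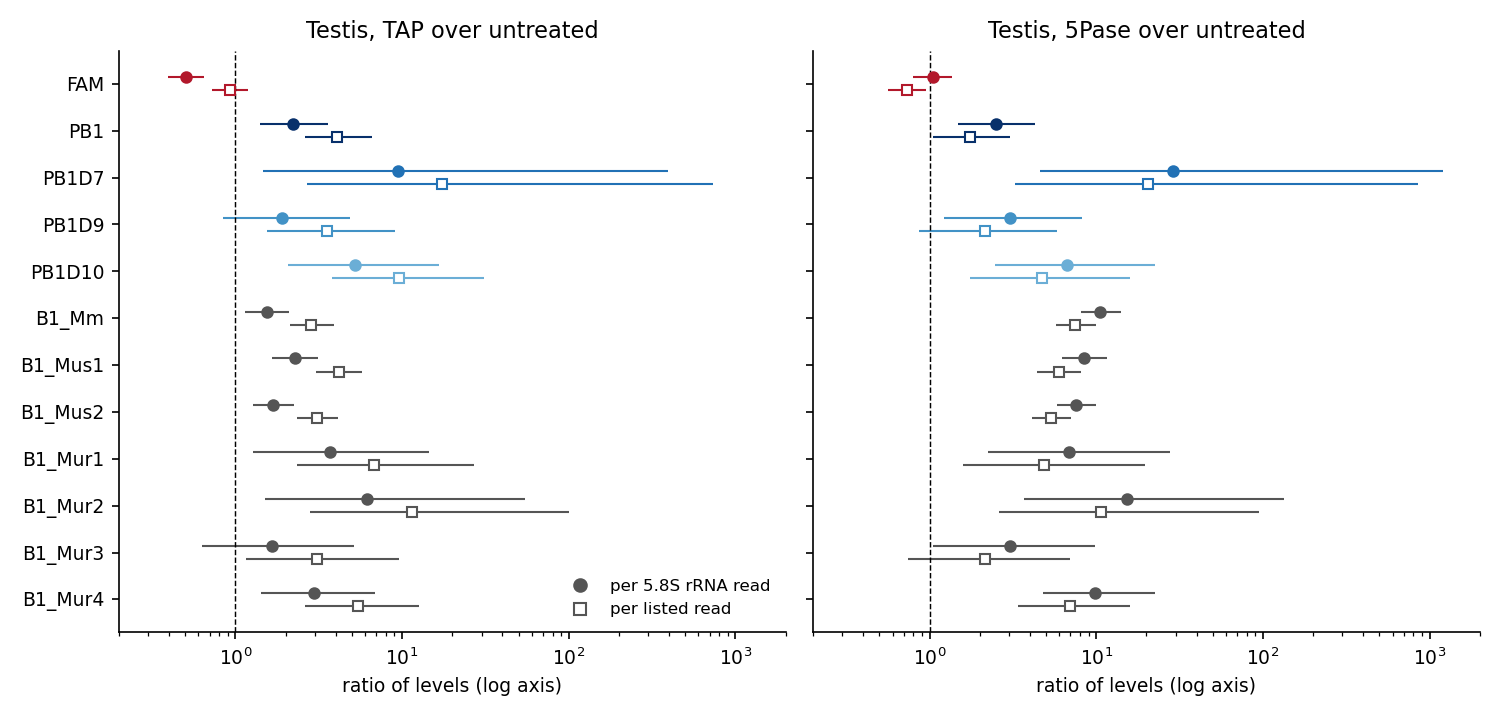
Ratio of the TAP library (left) and of the 5Pase library (right) to the untreated testis library for the 5 monomer names listed in testis (coloured) and 7 B1 subfamilies (grey), on log axes, with exact 95% intervals from the read counts, per 5.8S rRNA read (filled circles) and per listed read (open squares); the dashed line marks 1. FAM sits at 0.503 and 1.04 per 5.8S rRNA read, and every PB1 point lies to the right of the line.

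B1, the younger 7SL-derived family, was the yardstick for these changes. Its 10 subfamilies together had 209 reads without enzyme, 673 after TAP and 1172 after 5Pase, and 30815 and 28806 in spermatogonia. The ratio of B1 was 1.90 (1.62 to 2.23) after TAP and 8.52 (7.35 to 9.92) after 5Pase per 5.8S rRNA read. Relative to B1, the PB1 names had a ratio of 1.43 (0.981 to 2.09) from untreated to TAP, not distinguishable from 1. From untreated to 5Pase it was 0.448 (0.301 to 0.668), so the PB1 ratio was smaller than that of B1. From 5Pase to TAP there were 3.20 (2.46 to 4.16) times as many PB1 reads per B1 read. For FAM relative to B1 the ratios were 0.265 (0.199 to 0.353) after TAP and 0.122 (0.0909 to 0.164) after 5Pase, below 1 in both.

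After TAP, B1 subfamilies of different age gave overlapping intervals when set against PB1. Against B1_Mur1 to B1_Mur4, which had 21, 108 and 108 reads in the untreated, TAP and 5Pase libraries, the PB1 names had a ratio of 0.897 (0.502 to 1.61) after TAP and 0.489 (0.269 to 0.887) after 5Pase. Against the young subfamilies B1_Mm, B1_Mus1 and B1_Mus2 the ratios were 1.51 (1.03 to 2.22) and 0.432 (0.289 to 0.646). B1F, B1F1 and B1F2, the oldest B1 names, had only 6, 8 and 5 reads in the testis libraries, and the ratio of PB1 to them after TAP, 3.46, had an interval of 1.14 to 10.5. After 5Pase it was 3.02 (0.870 to 10.5), not distinguishable from 1. This interval lay above the 0.289 to 0.646 against the young subfamilies, and it rested on 6 untreated and 5 treated reads of these old names.

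Monomers made up a larger share of the monomer and B1 reads in each testis library than in spermatogonia. Of the monomer and B1 reads together, monomers were 46.5% in untreated testis (Wilson 95% interval 41.7 to 51.5), 31.0% (28.2 to 33.9) after TAP and 14.3% (12.6 to 16.3) after 5Pase. In spermatogonia they were 4.17% (3.96 to 4.40) and 3.51% (3.30 to 3.72), or 3.84% ± 0.471 (SD, n = 2). The 3 testis shares did not overlap each other or the spermatogonia shares within these intervals. Without FAM the order changed, because the PB1 share of PB1 and B1 reads was 15.7% (11.7 to 20.8) untreated, 21.1% (18.5 to 24.0) after TAP, 7.72% (6.37 to 9.32) after 5Pase and 3.52% ± 0.567 (SD, n = 2) in spermatogonia.

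The spermatogonia libraries were set against testis after TAP and testis after 5Pase. The PB1 names had 1256 and 926 reads in the replicates. Their level was 4.19 ± 1.64 (SD, n = 2) times that of the TAP library per 5.8S rRNA read and 2.98 ± 1.17 times that of the 5Pase library. Per listed read these ratios were 2.55 ± 0.285 and 4.75 ± 0.530. Each replicate lay above both testis libraries on both scales. PB1D9 carried much of this, since without it the ratios per 5.8S rRNA read were 2.73 and 1.99. The B1 ratios were larger, at 32.2 ± 17.4 and 7.17 ± 3.88 per 5.8S rRNA read. PB1 reads per B1 read were 0.136 ± 0.0228 times those of the TAP library and 0.436 ± 0.0728 times those of the 5Pase library. The first interval from the counts, 0.101 to 0.181, and the second, 0.310 to 0.604, lay below 1.

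FAM had lower ratios than B1. It had a ratio of 0.668 ± 0.513 (SD, n = 2) to the TAP library per 5.8S rRNA read, from 0.305 in replicate 1 to 1.03 in replicate 2, so the replicates lay on both sides of 1. Per listed read the ratio was 0.385 ± 0.208, with both replicates below 1. Its ratio to the 5Pase library was 0.323 ± 0.248 per 5.8S rRNA read and 0.485 ± 0.262 per listed read, again with both replicates below 1. FAM reads per B1 read were 0.0193 ± 0.00550 times those of the TAP library and 0.0418 ± 0.0119 times those of the 5Pase library. FAM reads per PB1 read were 0.147 ± 0.0649 and 0.0996 ± 0.0440 times those of the same libraries.

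PB1D9 had the highest spermatogonia ratio of the members. It was 12.8 ± 4.76 times its level after TAP and 8.09 ± 2.999 times its level after 5Pase per 5.8S rRNA read (SD, n = 2), and 7.86 ± 0.692 and 12.9 ± 1.14 times per listed read. With 26 and 16 reads in these testis libraries, the counts allowed 4.98 to 12.9 and 7.40 to 24.3 per listed read. Relative to B1, PB1D9 was 0.421 ± 0.0800 against TAP. Against 5Pase it was 1.19 ± 0.227, with replicates at 1.35 and 1.03. The counts allowed 0.623 to 2.23 for the latter, so a difference between PB1D9 and B1 was not detectable there. Relative to the name PB1, PB1D9 was 8.09 ± 1.58 against TAP and 5.73 ± 1.12 against 5Pase, where the counts allowed 4.38 to 14.6 and 2.71 to 11.9.

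The other PB1 names had smaller ratios per 5.8S rRNA read. PB1D10 was 3.46 ± 1.03 times its TAP level and 2.68 ± 0.798 times its 5Pase level. PB1D7 was 4.78 ± 1.97 and 1.56 ± 0.644 times. PB1 was 1.68 ± 0.915 and 1.49 ± 0.814 times, and the replicates lay at 1.03 and 2.32 for TAP and on both sides of 1, at 0.915 and 2.07, for 5Pase. Per listed read PB1 was 0.999 ± 0.281 times its TAP level, with replicates on both sides of 1. Per sequenced read it was 1.32 ± 0.139, with replicates at 1.22 and 1.42, but the counts allowed 0.955 to 1.83, which includes 1. Whether PB1 stood above TAP-treated testis by more than the spread between replicates thus depended on the denominator.

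Against TAP, 3 of 5 members (PB1D10, PB1D7 and PB1D9) were higher by 2-fold or more, beside 49.9% of 433 names with at least 10 reads, and none was lower by that much, beside 14.5%. Against 5Pase, 2 of 5 (PB1D10 and PB1D9) were higher, beside 30.7% of 427 names, and 1 (FAM) was lower, beside 33.3%. The members' shares were thus near those of all names. All 10 B1 subfamilies were higher by 2-fold or more in both comparisons. For B1F1, with 0 reads after TAP and after 5Pase, and for B1F2, with 0 after 5Pase, that call was fixed in advance. Such ratios entered the medians as infinite. B1F had only 4 and 5 reads in these testis libraries. The median ratio was 3.46 over the 5 members, 22.2 over the 10 B1 subfamilies and 2.62 over all names against TAP, and 1.56, 7.79 and 1.07 against 5Pase. FAM had a ratio above that of 20.3% of the names against TAP and of 28.3% against 5Pase. PB1D11 has no ratio, as it is not listed in testis.

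**Figure D3:**
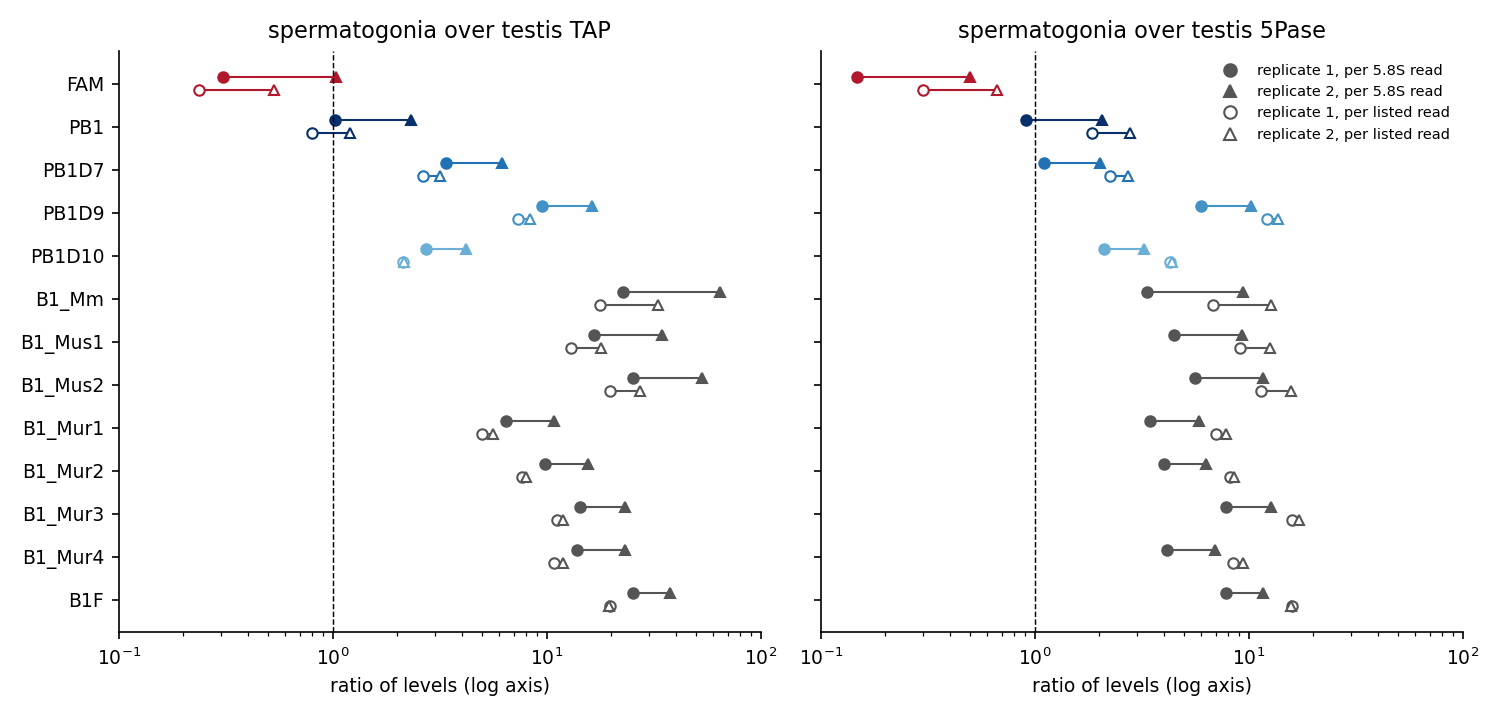
Ratio of each spermatogonia replicate (circle, replicate 1; triangle, replicate 2) to the testis TAP library (left) and the testis 5Pase library (right) for 5 monomer names (coloured) and 8 B1 subfamilies (grey), per 5.8S rRNA read (filled) and per listed read (open), on log axes; the dashed line marks 1. Within each replicate and scale FAM is the lowest name in both panels, at 0.305 and 1.03 over TAP per 5.8S rRNA read, and against 5Pase PB1D9 lies among the B1 subfamilies, at a mean of 8.09.

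The make-up of the monomer reads differed between libraries. FAM gave 78.6% of them in untreated testis (Wilson 95% interval 72.1 to 83.9), 40.4% (35.0 to 46.0) after TAP and 50.0% (43.1 to 56.9) after 5Pase. In spermatogonia it gave 6.41% (5.22 to 7.85) and 11.6% (9.76 to 13.6), or 8.98% ± 3.64 (SD, n = 2). PB1D9 gave 4.40% (2.24 to 8.43) untreated, 8.61% (5.94 to 12.3) after TAP and 8.16% (5.09 to 12.8) after 5Pase. In spermatogonia it gave 42.3% and 38.7%, or 40.5% ± 2.58 (SD, n = 2). FAM and PB1D9 thus changed places as the leading name between testis and spermatogonia.

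Within the PB1 names alone, PB1 led in testis with 64.1% (48.4 to 77.3) untreated, 52.2% (45.0 to 59.4) after TAP and 41.8% (32.6 to 51.7) after 5Pase. In spermatogonia it gave 17.8% (15.7 to 20.0) and 22.7% (20.1 to 25.5). PB1D9 gave 20.5% (10.8 to 35.5), 14.4% (10.1 to 20.3) and 16.3% (10.3 to 24.9) in the testis libraries and 45.2% (42.5 to 48.0) and 43.7% (40.6 to 47.0) in spermatogonia. PB1D10 gave a like share after TAP, 24.4% (18.7 to 31.2), after 5Pase, 22.4% (15.3 to 31.7), and in spermatogonia, 22.1% (19.8 to 24.4) and 19.1% (16.7 to 21.8), and these intervals overlap. PB1D7 gave 19.4% (12.8 to 28.3) after 5Pase, 8.89% (5.55 to 14.0) after TAP and 9.95% and 10.3% in spermatogonia. The order of the names in spermatogonia was PB1D9, then PB1D10 and PB1, which traded places between replicates, then PB1D7 and PB1D11. PB1D11 is not listed in testis, and whether it had no reads there or its reads were assigned to other names is not known.

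**Figure D4:**
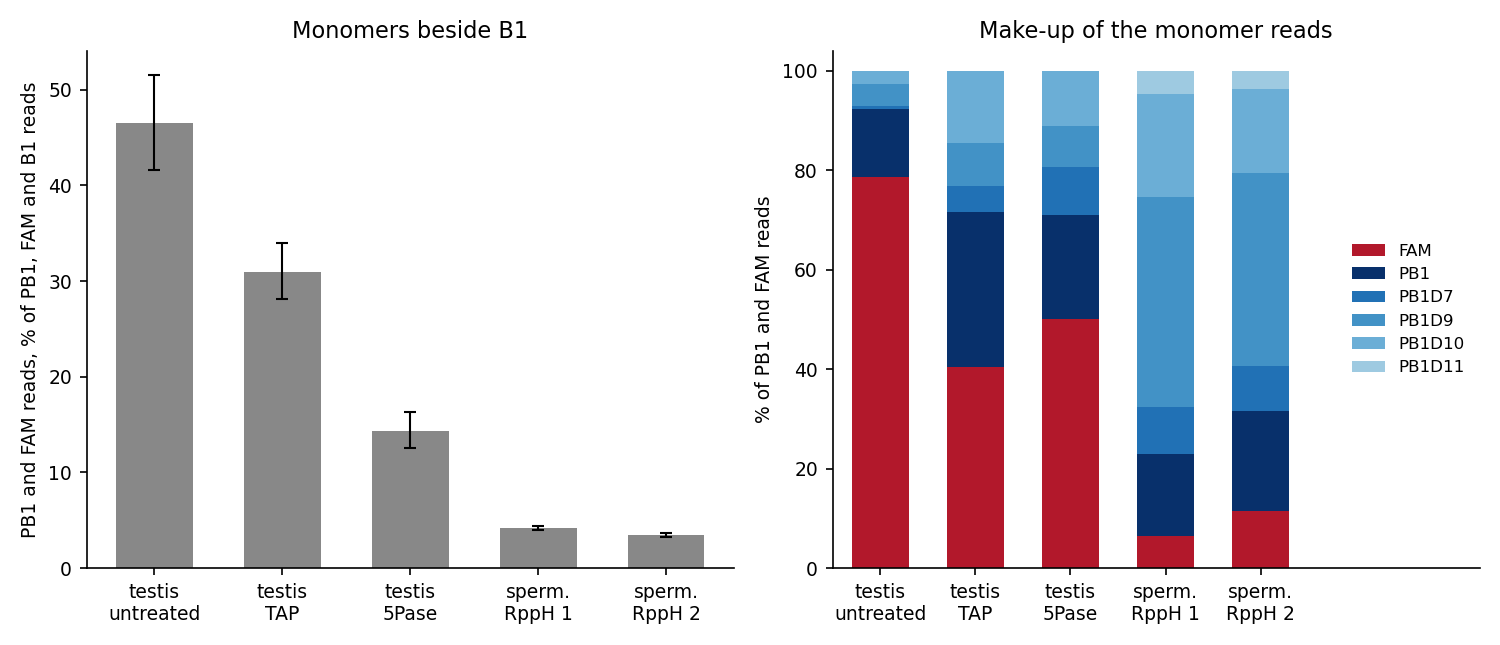
Left, PB1 and FAM reads as a percent of PB1, FAM and B1 reads in each library, with Wilson 95% intervals from the counts; right, the percent of PB1 and FAM reads that each name gave. The left bars go from 46.5% in untreated testis to 3.51% in spermatogonia replicate 2, and on the right FAM takes 78.6% of the first bar while PB1D9 takes 42.3% and 38.7% of the spermatogonia bars.

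Likeness was measured as the distance between log2 levels per listed read over the 5 libraries, each profile centred on its own mean, among 171 names with at least 10 reads in every library. Nearest to the sum of all members were the tRNA gene name chr13.trna952-LeuCAG, at 0.80, and 4 names of H/ACA snoRNAs, SNORA63, SNORA3, SNORA49 and SNORA71, at 0.89 to 1.02. B1_Mus1, the nearest of the 3 B1 subfamilies with that many reads, ranked 95. As the sum mixes unlike profiles, FAM and the sum of the PB1 names were also compared apart, a choice made after their values were seen.

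Nearest to the PB1 names summed was RSINE1, at a distance of 0.31, and then B4A, at 0.72, both composite SINEs that join an ID-like part to a B1-like part. No single PB1 name was compared, and this sum also mixes unlike names. Per listed read, spermatogonia over TAP was 0.999 for PB1 and 7.86 for PB1D9. RSINE1 had 23.3, 134, 83.2, 344 and 367 reads per 1000000 listed reads in the untreated, TAP, 5Pase and spermatogonia libraries, where the PB1 names had 33.6, 169, 90.6, 397 and 465. Among the 3 B1 subfamilies with at least 10 reads in every library, all young, B1_Mus1 was the nearest, at rank 21 and a distance of 2.46. The B1_Mur names had 2 to 9 reads in the untreated library and were left out of the ranks. Without that minimum, a choice made after the values were seen, B1_Mur1 lay at 1.31 from the PB1 sum, and B1_Mur3, B1_Mur4 and B1_Mur2 at 2.06, 2.22 and 2.38. B3A, a tRNA-derived SINE at rank 5, was at 1.43.

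Nearest to FAM were 4 tRNA names, led by chr14.trna359-GluTTC at 0.51 and chr5.trna1316-AspGTC at 0.74, and then SNORA16 at 1.04. The name chr14.trna359-GluTTC had 127, 165, 126, 45.8 and 84.3 reads per 1000000 listed reads in the same order, where FAM had 123, 114, 90.6, 27.2 and 60.7. B1_Mus1 was at rank 156 of the 171 names and a distance of 6.81. Without the minimum count, the distance of FAM from B1_Mur1, the nearest B1 subfamily, was 5.88. The 7 B1 subfamilies with reads in every library lay at 5.88 to 7.15 from FAM and at 1.31 to 2.97 from the PB1 sum. These distances describe 5 libraries that share their enzyme and kit groups.

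**Figure D5:**
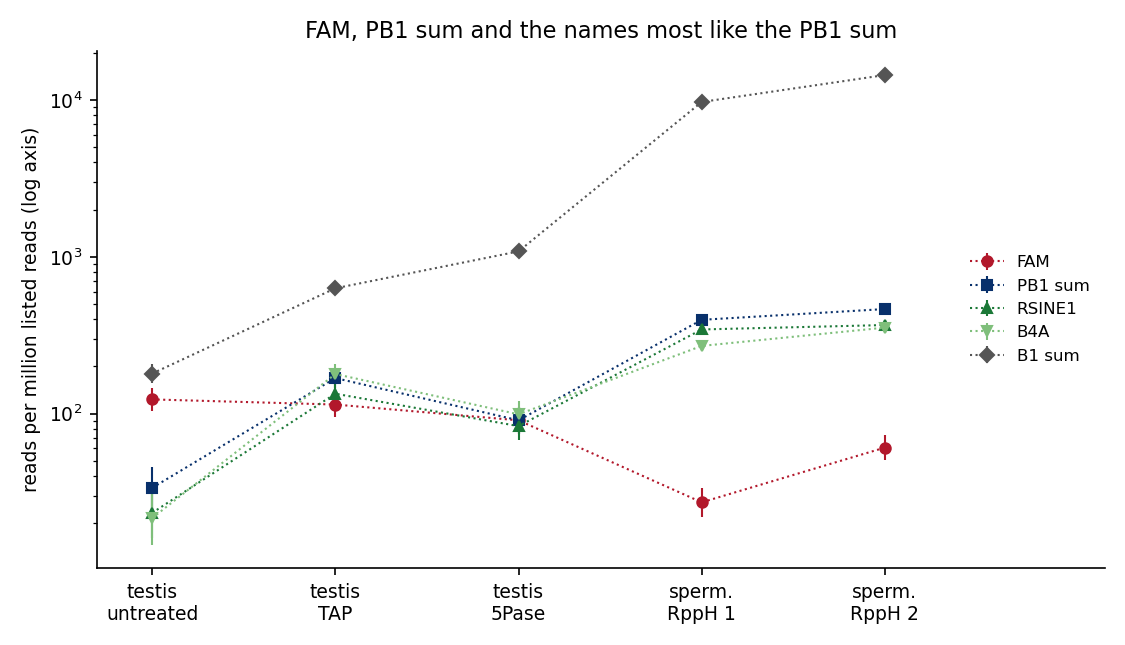
Reads per 1000000 listed reads (log axis) in the 5 libraries for FAM, the PB1 names summed, RSINE1, B4A and the 10 B1 subfamilies summed; bars are Wilson 95% intervals and the dotted lines only join points of a name. The PB1 sum and RSINE1 stay within a short distance of each other, from 33.6 and 23.3 in untreated testis to 465 and 367 in spermatogonia replicate 2, whereas FAM goes from 123 to 60.7.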

How the data were processed

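Reads were trimmed of the adaptor by the authors with Cutadapt, and those in which it was found were named with RepeatMasker. The deposited values are counts, whole numbers of reads for each name, with no scaling. Versions and the repeat library are not given in the sources used here. The tables hold no coordinates or orientation, and a read of 1 monomer can be assigned to a closely related name. In the untreated and the 5Pase data, 1 name each has no count and was skipped, and 4 names written in other capitals in testis were joined to their spermatogonia spelling.

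Ratios were computed with Python 3.11.15, numpy 2.4.6 and scipy 1.17.1, with exact binomial intervals, and ratios of ratios with intervals from the log odds ratio. The interval code was tested on simulated data. A name entered a count of names with at least 10 reads over the libraries compared. The members, lists and B1 subfamilies were chosen with earlier results of these data known. Named were all members, the 10 B1 subfamilies and the 5 names most alike to the sum; separate sums of PB1 names and FAM were added later. Alternatives changed the denominator (with totals of sequenced reads from the study's sequencing statistics), members, B1 subfamilies, minimum count and replicates. Sequences are not reported here.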

Additional observations from a re-analysis of the deposited data

How the results depend on the processing

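The ratio of all monomers depended on what 5.8S rRNA was replaced by. TAP over untreated was 1.80 per listed read, 2.64 per listed read other than 5.8S rRNA, 1.58 per sequenced read and 1.74 with median-of-ratios size factors; it was 2.72 without FAM and 0.781 without PB1. In the same order of denominators, 5Pase over untreated was 1.16, 1.04, 1.25 and, on the other side of 1, 0.875, and 3.82 without FAM. Spermatogonia over TAP was 1.24 without 5.8S rRNA in the denominator, 1.22 with size factors and 4.19 without FAM. Spermatogonia over 5Pase was 2.62, 3.13, 2.84 and 2.42 under the 4 denominators and 2.98 without FAM. Leaving out a spermatogonia replicate gave 1.93 to 3.60 over TAP and 1.15 to 2.15 over 5Pase.

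The PB1 sum, an addition made after the values were seen, kept its direction under each denominator in the 4 comparisons below, but not in TAP over 5Pase. TAP over untreated was 5.02, 7.33, 4.40 and 4.84 in that order. 5Pase over untreated was 2.43 without 5.8S rRNA in the denominator, 2.04 with size factors and 6.19 without PB1. Spermatogonia over TAP was 1.89, 1.85 and 6.93 under the same changes, and 2.73 without PB1D9. Spermatogonia over 5Pase was 4.75, 5.69, 5.17 and 4.39 under the 4 denominators and 1.99 without PB1D9. Single replicates gave 3.02 to 5.35 and 2.16 to 3.81.

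Monomers per B1 read did not depend on a denominator. Against B1F, B1F1 and B1F2 alone, on 5 to 8 testis reads, the ratio turned to 1.24 after TAP and 1.29 after 5Pase, and was 0.106 and 0.102 for spermatogonia over TAP and over 5Pase. Without FAM it turned to 1.43 after TAP, and was 0.448 after 5Pase, 0.136 for spermatogonia over TAP and 0.436 over 5Pase. Over TAP it was 0.106 without PB1 and 0.0578 without PB1D9, and over 5Pase 0.154 without PB1D9. FAM per PB1 read was 0.168 for 5Pase over untreated without PB1, and without PB1D9 it was 0.225 for spermatogonia over TAP and 0.149 over 5Pase. It stayed below 1 under every alternative run.

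Names higher by 2-fold or more numbered 313 with no minimum count and 40 with at least 50 reads for TAP over untreated, against 94, and 280 and 64 for 5Pase over untreated, against 129. Names lower after 5Pase numbered 66 with no minimum and 19 per listed read, against 10. Why results moved with a setting was not tested beyond what its construction fixes. No paired analysis was possible because each testis treatment has 1 library, so the groups share fewer than 2 replicate numbers. The limits are the read counts of PB1D7, PB1D9 and PB1D10 in untreated testis, at 1, 8 and 5.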
